A study of Mus musculus with 4 samples.

Results

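L1MC and L1MD elements are old LINE-1 copies, and RNA-seq read counts on them were compared between WT and Lsh-/- mouse tissue. The loci were those in the deposited LINE tables whose repeat name begins with L1MC or L1MD, written in capitals, so that the young mouse family spelled L1Md was left out. They were 11702 of 145916 listed LINE loci (8.02%), fell into 16 subfamilies and had a median width of 205 bp (52 to 5227 bp).

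The study compared 2 pairs of RNA samples from C57BL/6J mice, each with 1 library per genotype. The first pair was WT and Lsh-/- tail-tip fibroblasts of adult mice, cells that the methods describe as SV40-transformed and as given by another laboratory. The second pair was WT and Lsh-/- embryos of E13.5, taken whole and so a mixture of tissues. The labels call the control embryos WT, while the methods for obtaining embryos also mention heterozygous ones. With 1 library in each group no difference between genotypes has a replicate check, no test across genotypes was made, and the intervals below cover counting error or the spread over loci only. In whole embryos, fewer cells of a type and less RNA per cell cannot be told apart.

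Lsh, encoded by Hells, is a chromatin remodelling protein of the SNF2 family that is needed for normal DNA methylation of repeats. LINE-1 elements copy themselves through an RNA intermediate that starts from a promoter at their 5′ end, and most copies are cut short at that end when they insert. L1MC and L1MD copies inserted long before the origin of the mouse, have gathered many mutations and no longer move, so reads can be placed on single copies, and a read on such a copy can belong to a longer RNA that runs through it.

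The sequences below are of loci with more reads without Lsh, namely the 3 with the largest counts above a log2 fold change of 5 in each tissue, and 4 of the 5 best covered among the 20 above 1 in both tissues. They are shown as named examples of raised copies, and because DNA methylation acts on CpG sites, which can be counted in them. The other well covered one, an L1MC4 near Pcdhgc5, is not printed. Each is the first 300 bases at most of the element in its own 5′ to 3′ direction, read from the mm9 genome, with CG in capitals.
L1MC5, chr1:119127244-119127543, minus strand: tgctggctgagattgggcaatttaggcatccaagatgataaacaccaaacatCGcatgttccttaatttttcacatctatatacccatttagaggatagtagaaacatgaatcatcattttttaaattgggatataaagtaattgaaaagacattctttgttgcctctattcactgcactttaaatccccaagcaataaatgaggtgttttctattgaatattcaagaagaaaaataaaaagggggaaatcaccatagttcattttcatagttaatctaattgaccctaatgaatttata
L1MD, chr4:51918575-51918874, plus strand: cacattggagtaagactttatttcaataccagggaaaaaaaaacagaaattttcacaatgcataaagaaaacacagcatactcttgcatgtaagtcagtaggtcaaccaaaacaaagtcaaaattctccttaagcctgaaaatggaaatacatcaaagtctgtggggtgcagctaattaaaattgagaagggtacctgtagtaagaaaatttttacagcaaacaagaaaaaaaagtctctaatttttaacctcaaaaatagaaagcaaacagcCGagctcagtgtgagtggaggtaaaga
L1MD1, chr6:65330375-65330593, plus strand: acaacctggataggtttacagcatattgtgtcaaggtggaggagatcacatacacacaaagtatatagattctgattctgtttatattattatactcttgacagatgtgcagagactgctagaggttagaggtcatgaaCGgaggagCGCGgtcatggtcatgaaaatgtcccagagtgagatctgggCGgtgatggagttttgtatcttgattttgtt
L1MC5 in Atxn1, chr13:45765635-45765843, plus strand: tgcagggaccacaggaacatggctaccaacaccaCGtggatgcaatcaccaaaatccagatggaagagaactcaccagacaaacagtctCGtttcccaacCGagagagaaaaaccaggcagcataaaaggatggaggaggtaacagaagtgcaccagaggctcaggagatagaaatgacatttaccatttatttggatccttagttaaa
L1MC1 in Tbl1xr1, chr3:21999625-21999907, minus strand: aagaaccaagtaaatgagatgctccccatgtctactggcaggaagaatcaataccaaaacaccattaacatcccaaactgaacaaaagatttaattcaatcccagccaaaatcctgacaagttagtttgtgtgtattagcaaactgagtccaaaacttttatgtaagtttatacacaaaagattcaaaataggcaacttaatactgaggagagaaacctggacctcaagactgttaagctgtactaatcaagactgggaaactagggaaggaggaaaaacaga
L1MC4 in Dstyk, chr1:134355324-134355623, minus strand: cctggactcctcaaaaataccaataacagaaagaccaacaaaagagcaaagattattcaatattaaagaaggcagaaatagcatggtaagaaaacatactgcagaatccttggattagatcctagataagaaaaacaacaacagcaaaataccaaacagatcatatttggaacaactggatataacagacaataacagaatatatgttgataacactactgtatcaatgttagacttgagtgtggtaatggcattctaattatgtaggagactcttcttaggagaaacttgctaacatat
L1MC near Ppp1r2, chr16:31244847-31245146, plus strand: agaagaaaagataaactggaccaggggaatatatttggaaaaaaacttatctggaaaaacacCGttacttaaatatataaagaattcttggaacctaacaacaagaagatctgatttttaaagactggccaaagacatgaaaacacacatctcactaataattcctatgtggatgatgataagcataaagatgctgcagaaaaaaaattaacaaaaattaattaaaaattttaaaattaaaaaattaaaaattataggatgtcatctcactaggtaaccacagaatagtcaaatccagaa
L1MC1 near Runx3, chr4:134739599-134739898, minus strand: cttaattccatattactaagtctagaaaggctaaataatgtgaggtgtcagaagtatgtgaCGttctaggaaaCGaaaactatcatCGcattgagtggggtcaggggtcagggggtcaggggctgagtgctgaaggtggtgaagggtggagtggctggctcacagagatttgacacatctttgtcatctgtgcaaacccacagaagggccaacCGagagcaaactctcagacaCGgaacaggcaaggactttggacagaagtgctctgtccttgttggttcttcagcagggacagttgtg

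The 8 sequences held between 0 and 5 CG sites each, and the unprinted L1MC4 near Pcdhgc5 held 10 over its 403 bp. Over all annotated L1MC and L1MD loci there were 0.695 CpG per 100 bases, against 0.916 in L1Md loci and 0.682 in all other LINE loci, L1Md included. No CpG was present in 34.2% of the L1MC and L1MD loci, against 4.18% of L1Md loci and 23.6% of all other LINE loci. The loci were not matched for width in these shares. In fibroblasts the 23 loci above 5 had 0.569 CpG per 100 bases, the 184 above 1 had 0.780, the 737 annotated loci within 1 had 0.804 and the 208 annotated loci below −1 had 0.686. In embryos the 55 loci above 5 had 0.784, the 461 above 1 had 0.760, the 1303 within 1 had 0.727 and the 483 below −1 had 0.713. Pooled over bases, CpG content thus fell from higher to lower loci in embryos and did not run in 1 direction in fibroblasts. The embryo medians over loci, 0.578, 0.558, 0.581 and 0.505 in the same order, did not fall steadily, and these differences were not tested.

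The 6 tables of a library together held 19216257 to 33904311 counts. The L1MC and L1MD loci took 30958 (WT) and 30438 (Lsh-/-) counts in fibroblasts and 62159 (WT) and 56867 (Lsh-/-) counts in embryos, which was 6.48 to 7.27% of the counts on LINE loci. They were thinly covered, as 9283 of the 11702 loci did not reach 10 counts in either pair, 2016 were listed in all 4 libraries and 5487 in a single library. The targeted gene Hells had no reads (0) over exons 11 and 12 in either Lsh-/- library, where WT fibroblasts had 937 and WT embryos 427. Its intervals away from exons 11 to 13 were read in all libraries, with 5784 and 6132 counts in fibroblasts and 2187 and 2014 in embryos. Over all its intervals, exon 13 included, Hells had 7848 and 6216 counts in fibroblasts and 3151 and 2038 in embryos. The 6 fibroblast markers that an interval covered, among them Col1a1, Col3a1 and Vim, were read in all 4 libraries, and Thy1 had no interval. The liver markers Afp and Alb summed to 3160 counts in WT embryos and to 376 without Lsh, and the muscle markers Myog, Myh3 and Actc1 to 15413 and 15520. The blood markers, Hba-x, Hbb-y and Hbb-bh1, summed to 21 and 8, and the neural markers Tubb3 and Dcx to 944 and 709, with Tubb3 at 572 and 299. In fibroblasts Tubb3 had 848 counts in WT and 410 without Lsh, Col3a1 had 4188 and 9082, Vim 110360 and 73319, Afp 1 and 45, Myog 0 and 25 and Myh3 1 and 24, and Alb had 0 in both. Xist had 16828 counts in WT fibroblasts and 53 without Lsh, and intervals on chromosome Y had 12 and 5402, so the fibroblast libraries also differ in sex-chromosome RNA. The part of these marker differences in the results was not tested.

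As a group, L1MC and L1MD loci were at about the same level with and without Lsh. After scaling by the intervals that flank LINE-1 loci, they had a level of 1589 CPM in WT fibroblasts (1571 to 1607, 95% counting interval) and 1513 in Lsh-/- fibroblasts (1496 to 1530). In embryos they had 2298 CPM in WT (2280 to 2316) and 2183 in Lsh-/- (2165 to 2201). The intervals within each tissue did not overlap, and no library replicate shows how far such totals vary. In fibroblasts the direction turned with the scaling, since scaling by LINE counts gave a scaled total of 30258 counts in WT and 31159 in Lsh-/-, and scaling by all 6 tables gave 25465 and 38810.

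At single loci, log2 fold changes of Lsh-/- over WT were centred on 0 in both tissues. A locus was kept when its 2 libraries together held 10 counts or more, and a small prior count was added to avoid dividing by 0. In fibroblasts 1131 loci were kept and their median log2 fold change was −0.05 (−0.05 to 0.08, 95% order-statistic interval over loci), against 0.09 over 14058 LINE loci. Of them 184 (16.3%, Wilson interval 14.2 to 18.5%) were above 1, against 24.1% of all LINE loci, and 209 (18.5%) were below −1, against 18.2%. Past the wider limit of 5 that the study draws, 23 loci (2.03%) lay above, against 8.74% of all LINE loci, and 13 (1.15%) lay below −5, against 1.04%. The scaling by all 6 tables moved every fibroblast value up, to a median of 0.63 with 37.7% above 1 and 8.05% below −1.

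The share of L1MC and L1MD loci above 1 was therefore below that of LINE loci in general in fibroblasts, and the share below −1 was close to it. Old L1MA and L1MB loci were above 5 in 2.55% of cases, the older L1ME, L1M1 to L1M8 and HAL1 loci in 3.94%, L2 loci in 1.403% and young L1Md loci in 27.7%. The other old families were thus also below the LINE background. Counting error was also considered, 1 locus at a time, by asking for a 95% interval of the ratio (Clopper-Pearson) wholly past the limit. The rule makes no allowance for the number of loci asked or for spread beyond counting error. By that rule 32 loci (2.83%) were above 1, against 10.5% of all LINE loci, and 20 (1.77%) were below −1, against 2.17%.

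In embryos 2247 loci were kept, and higher and lower loci were about equal in number. Their median was −0.02, against 0.04 over 24989 LINE loci. There were 461 loci (20.5%) above 1 and 483 (21.5%) below −1, against 21.3% and 20.7% of all LINE loci. There were 55 (2.45%) above 5 and 71 (3.16%) below −5, against 3.09% and 2.89%. Ratio intervals lay wholly above 1 for 83 loci, against 4.50% of all LINE loci, and wholly below −1 for 119, against 4.34%. The liver marker difference given above stands beside all embryo values.

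**Figure D1:**
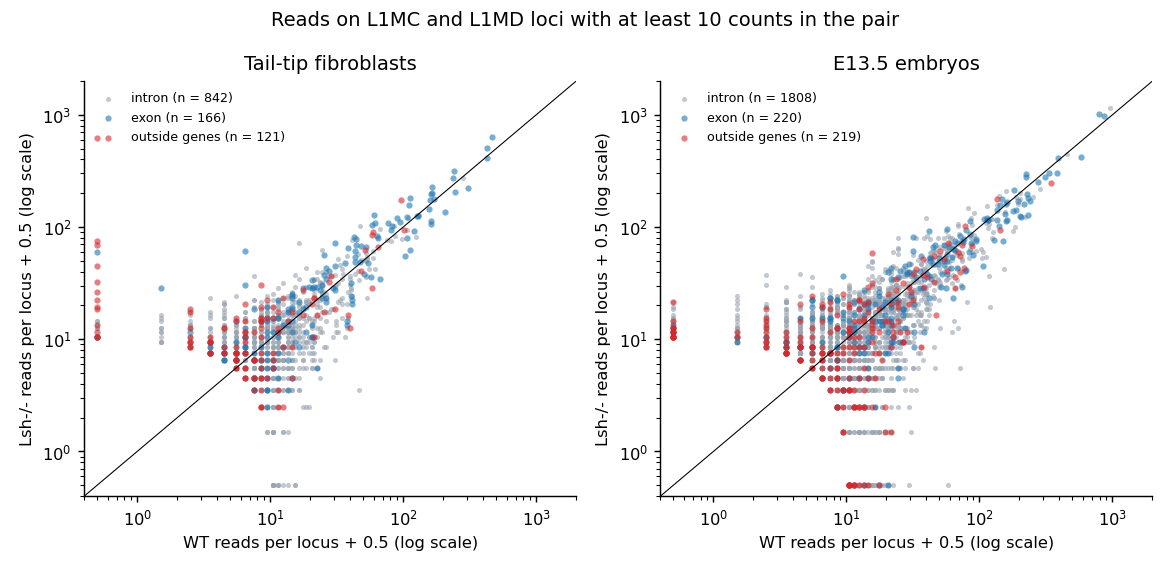
Reads per locus in WT (x axis) and Lsh-/- (y axis), each with 0.5 added and on log scales, for L1MC and L1MD loci with 10 or more counts in a pair, coloured by position. Most loci lie along the line of equal counts, and in fibroblasts 23 loci with 0 reads in WT stand at the left edge, 13 of them outside genes.

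Subfamily medians lay close to 0. Of those with at least 20 loci kept, medians in fibroblasts ran from −0.45 for L1MDa (−0.84 to −0.22, n = 58) to 0.46 for L1MCa (−0.30 to 0.67, n = 45). In embryos they ran from −0.23 for L1MC (−0.40 to −0.02, n = 241) to 0.13 for L1MCa (−0.08 to 0.37, n = 113). L1MDa in embryos had a median of −0.01 (−0.35 to 0.12, n = 110), and L1MC in fibroblasts −0.02 (−0.28 to 0.25, n = 120), so neither low value was seen in the other tissue. All L1MC names had 16.4% of 801 loci above 1 in fibroblasts, and L1MD names 16.1% of 330.

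**Figure D2:**
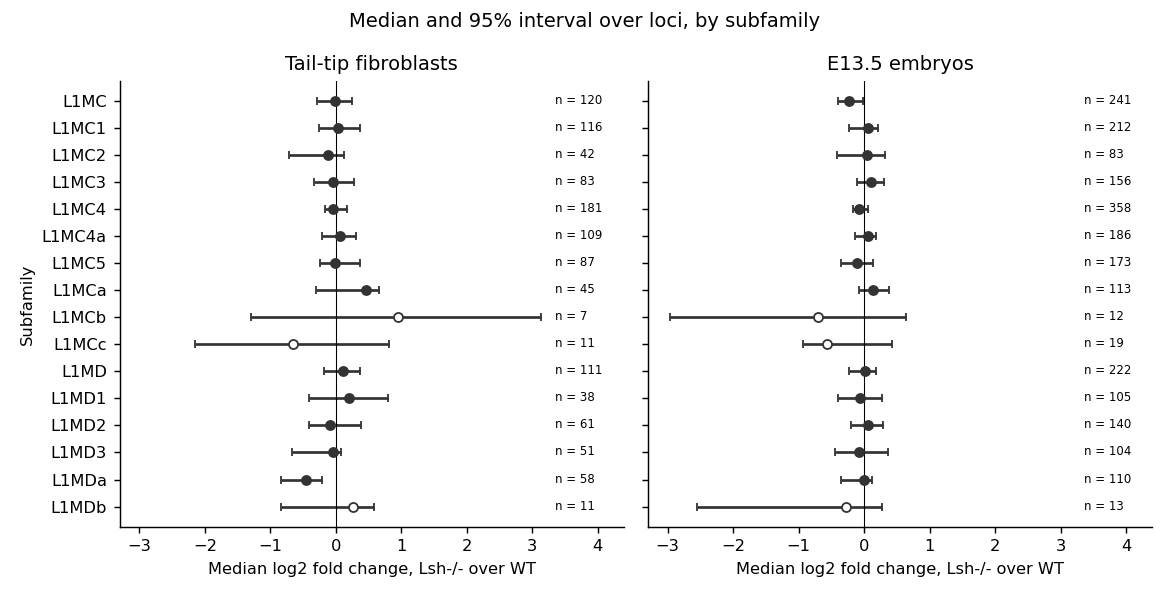
Median log2 fold change (x axis) with its 95% order-statistic interval over loci for each of the 16 subfamilies (y axis), with n the number of loci kept, and open points for subfamilies with fewer than 20. Intervals of most subfamilies include 0, and L1MDa in fibroblasts and L1MC in embryos lie below it.

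The loci also differed by where they lay in the genome. By the GENCODE annotation, 361 loci overlapped an exon, 8874 lay in introns of 3595 genes and 2463 lay outside genes. Among loci inside genes of 1 strand, 68.4% (67.4 to 69.3%) of 9122 were antisense to the gene, against 65.3% of other LINE loci. The exonic loci were few but took 22.9 to 29.7% of all counts on L1MC and L1MD.

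In fibroblasts the loci outside genes had the highest fold changes. Their median was 0.43 (0.20 to 0.68, n = 121), against −0.05 (−0.18 to −0.05, n = 842) in introns and 0.20 (0.04 to 0.34, n = 166) in exons. Of the 121 loci, 37 (30.6%, 23.1 to 39.3%) were above 1 and 16 (13.2%) below −1, while 53.2% and 10.7% of all LINE loci outside genes were. Above 5 were 13 of them (10.7%, 6.39 to 17.5%), against 34.4% of all LINE loci outside genes, and 0 were below −5, against 1.02%. In introns 7 loci (0.831%) were above 5, against 1.86% of all intronic LINE loci, and in exons 3 (1.81%), against 1.99%. Outside genes, L1MA and L1MB loci were above 5 in 14.1% of 185 cases, L1ME and related loci in 22.7% of 251, and L1Md loci in 53.8% of 416. Below the L1MC and L1MD share were L2 loci, with 8 of 160 above 5.

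In embryos, loci outside genes were spread to both sides. Of 219 such loci 57 (26.0%) were above 1 and 55 (25.1%) below −1, against 28.5% and 20.4% of all LINE loci outside genes. Above 5 were 13 (5.94%), against 8.77%, and 12 (5.48%) were below −5, against 3.20%. The median was 0.05 (−0.21 to 0.27). In introns 40 of 1808 loci (2.21%) were above 5, against 2.21% of all intronic LINE loci, and in exons 2 of 220 (0.909%), against 0.635%.

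**Figure D3:**
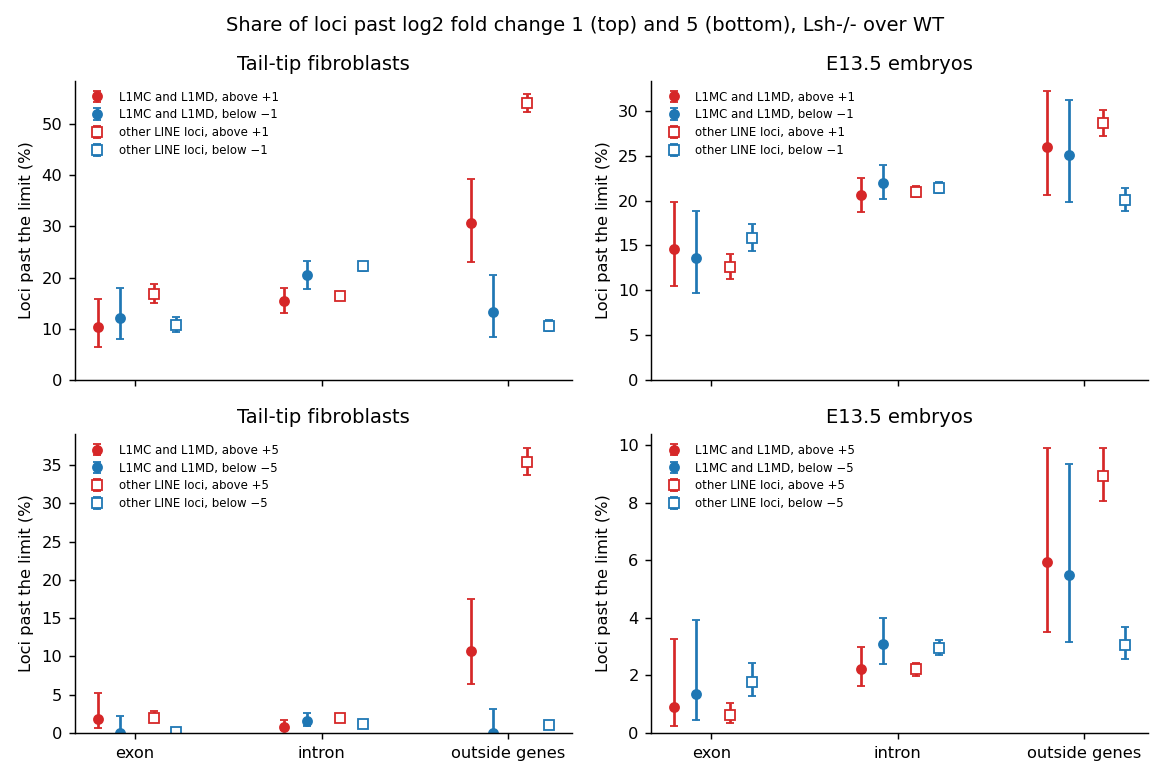
Share of loci (y axis, percent) past a log2 fold change of 1 (top) or 5 (bottom) in either direction, by position, for L1MC and L1MD loci (filled circles) and other LINE loci (open squares), with 95% Wilson intervals. In fibroblasts 10.7% of L1MC and L1MD loci outside genes were above 5, and in introns 0.831%.

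Every one of the 23 fibroblast loci above 5 had 0 reads in WT, so their fold changes are lower bounds, given here against a floor of 3 counts in the WT library. Together they held 1140 counts in Lsh-/- fibroblasts, and 8 of them had at least 20. An L1MC5 outside genes, on the minus strand at chr1:119127018-119127543 and 648414 bp from the nearest protein-coding gene Cntnap5a, had 0 counts in WT fibroblasts, 625 without Lsh and 0 in both embryo libraries. It was at least 202-fold higher without Lsh, and it alone held 625 of the 1140 counts. Its flanking intervals held 0 and 0 counts on one side and 0 and 5 on the other, so few reads lay at that distance.

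An L1MD on chromosome 4 (chr4:51918575-51918959) had 0 and 75 counts in fibroblasts, WT first, at least 24.2-fold higher, and 0 and 2 in embryos. It lay 533155 bp from Smc2, directly beside an L1M2 (0 bp between them) that went from 0 to 46 counts. A locus listed as IAPLTR1_Mm, at chr4:51907567-51912951, lay 5623 bp away and went from 0 to 67 counts. Its counts and distance are for the whole listed interval, which carries the name of the LTR of an IAP retrovirus-like element. An L1MD1 on chromosome 6 (chr6:65330375-65330593), 505 bp from C130060K24Rik, had 0 and 69 counts in fibroblasts and 0 and 21 in embryos. It was at least 22.3-fold higher in fibroblasts and at least 7.27-fold higher in embryos, and was the single locus with at least 10 counts and a fold change above 5 in both tissues. A second L1MD1 fragment 81 bp from it had 0 and 22 counts in fibroblasts and 0 in both embryo libraries, and an IAPLTR1_Mm 4227 bp away went from 0 to 127 in fibroblasts and an Lx2B 1154 bp away from 0 to 10.

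Further loci named here were chosen after their values were seen. An L1MC3 in an exon of Dppa2, a gene of early embryo and germ cells, had 0 and 59 counts in fibroblasts and 0 in both embryo libraries, and was at least 19.0-fold higher. An L1MD on chromosome X, 18551 bp from Magea10, had 0 and 44 counts. An L1MC on chromosome X, 69477 bp from Mageb5, had 0 and 26. Both genes belong to the MAGE group known for expression in testis and tumours. Both copies had 0 counts in embryos. The Magea10 copy lay 17 bp from an L1Md_F2 with 0 and 21 counts. Without chromosomes X and Y, 2.01% of 1047 loci in fibroblasts were above 5, against 2.03% with them. An L1MD2 on chromosome 11, 75070 bp from BC049762, had 0 and 32 counts in fibroblasts and lay 38 bp from an Lx4A with 0 and 22.

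**Figure D4:**
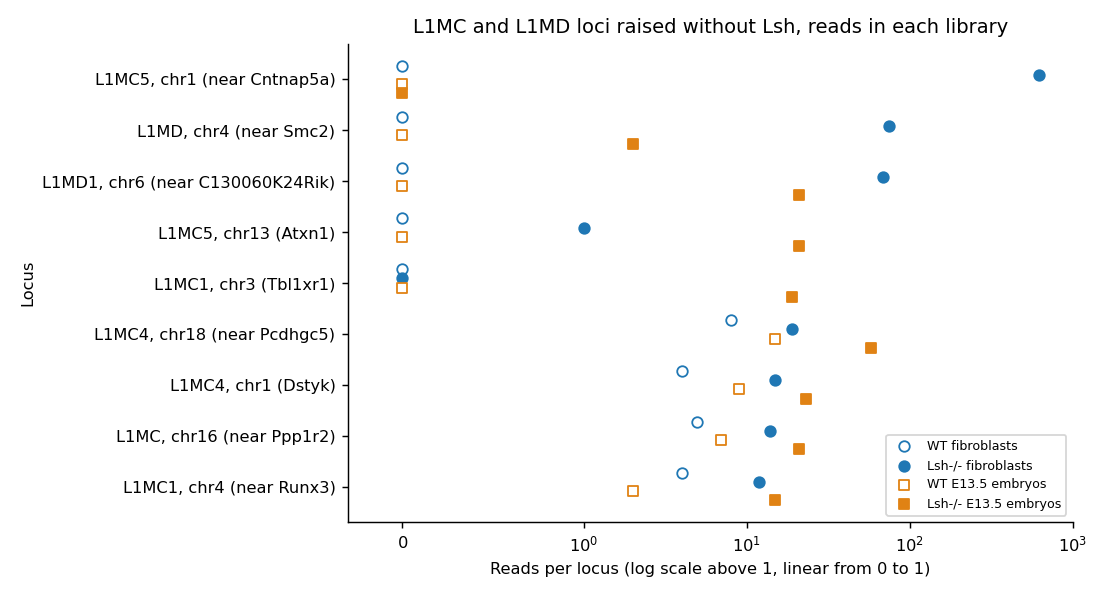
Reads in each of the 4 libraries (x axis, log scale above 1 and linear from 0 to 1) for the loci largest in count above 5 in a tissue and those above 1 in both tissues (y axis). The L1MC5 on chromosome 1 had 625 reads in Lsh-/- fibroblasts and 0 in the other 3 libraries.

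Loci above 5 in fibroblasts tended to have a raised repeat close by. Within 10 kb of the 23 loci, 6 had an LTR locus that was itself above 5 (26.1%, 12.5 to 46.5%), all of them IAPLTR1_Mm, and 11 had such an LTR or a LINE locus other than L1MC and L1MD above 5 (47.8%). Of the 1108 loci not above 5, 3 (0.271%) had such an LTR and 9 (0.812%) either kind. Outside genes the counts were 9 of 13 loci (69.2%) and 6 of 108 (5.56%). The nearest LTR was 74 bp from the L1MC near Mageb5, an IAPLTR1_Mm with 0 and 18 counts, and the nearest LINE loci were those next to the copies on chromosome 4, chromosome 11 and near Magea10 given above. An L1MC1 on chromosome 8 with 0 and 13 counts lay 3588 bp from an IAPLTR1_Mm with 0 and 514. The rule of being above 5 used the same contrast as the neighbours, so these shares are a description and have no test. The L1MD1 fragments on chromosome 6 are counted separately though they share the same IAPLTR1_Mm, so the loci are not independent. In embryos 4 of 55 loci above 5 (7.27%) and 40 of 2192 others (1.82%) had a raised LINE locus within 10 kb, and 0 of either had a raised LTR.

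The 55 embryo loci above 5 and the 71 below −5 were mostly near the count minimum. All had 0 reads in the lower library, which the limit and the count minimum largely set. The median in the other library was 11 counts for the loci above and 12 for those below, and 2 and 6 reached 20 counts. The largest above were an antisense L1MC5 in an intron of Atxn1, a gene named for spinocerebellar ataxia, with 0 and 21 counts, and an antisense L1MC1 in an intron of Tbl1xr1, a corepressor subunit, with 0 and 19. They were at least 7.27-fold and 6.58-fold higher. The largest below was an L1MC in an intron of Glp1r, the receptor of the gut hormone GLP-1, with 58 and 0 counts in embryos, at least 18.6-fold lower, but 43 and 38 in fibroblasts. An L1MD1 in an intron of Lrrfip2 had 22 and 0 counts in embryos and 9 and 2 in fibroblasts. In fibroblasts the 13 loci below −5 all lay in introns and had at most 15 counts, among them an L1MC1 in Metap2 (15 and 0), an L1MC5 in Sltm (15 and 0) and an L1MCa in Otud7a (13 and 0).

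The 3 loci with the most counts over both libraries of a tissue had fold changes within 1 in each tissue. In Lsh-/- fibroblasts alone, the L1MC5 on chromosome 1 with its 625 counts had nearly as many as the highest locus. An L1MD2 in an exon of Tmed10, a cargo receptor of the early secretory pathway, had 465 and 628 counts in fibroblasts and 795 and 1011 in embryos, with log2 fold changes of 0.39 (0.21 to 0.56) and 0.40 (0.27 to 0.54). An L1MC1 in an exon of Chmp3, an ESCRT subunit, had 429 and 509 counts in fibroblasts and 863 and 967 in embryos. An L1MDb in an exon of Kpna4, a nuclear import receptor, had 426 and 415 in fibroblasts and 382 and 305 in embryos. An L1MC2 in an intron of Anxa3, an annexin, had 280 and 275 in fibroblasts and 965 and 1157 in embryos. Of loci with at least 50 counts, 8.64% of 162 in fibroblasts were above 1 and 5.56% below −1, and in embryos 6.33% and 8.35% of 395. The shares of all LINE loci given above are at 10 counts or more, so they are not a like comparison for these.

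Of the loci above 1 in fibroblasts, the L1MC5 on chromosome 1 had the most counts, and the next 4 lay in exons or introns of genes. These were an L1MC5 in an intron of Dusp11 (16 and 72 counts, log2 fold change 2.12, 1.33 to 3.005), an L1MC3 in an exon of Rgs17 (30 and 71), an L1MC2 in an exon of Dtymk (60 and 127) and an L1MC5 in an intron of Ip6k2 (47 and 101). In embryos the same loci had 184 and 99, 5 and 7, 160 and 115, and 117 and 106 counts, so the Dusp11 copy was lower there with a log2 fold change of −0.84 (−1.21 to −0.48). Lower without Lsh in fibroblasts were an L1MC1 in an intron of Prkg2, a cGMP-dependent kinase (53 and 23), an L1MC in an exon of 4933407C03Rik (66 and 34), an L1MC4a in an exon of Clpb (41 and 20), and copies outside genes near Ctnnd1 (58 and 28) and Epgn (38 and 16).

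In embryos the higher loci of this kind were an L1MCa in an intron of Mef2a, a muscle transcription factor gene (39 and 119 counts, log2 fold change 1.66, 1.13 to 2.22), an L1MC3 in an exon of Ccl25 (41 and 91), an L1MC2 in 4933431K23Rik (40 and 82), an L1MCc in Cabin1 (38 and 80) and an L1MC4 in Fbxo22 (33 and 80). The Mef2a copy had 4 and 3 counts in fibroblasts. Lower were an L1MC in Zfp868 (153 and 42), 2 L1MC copies in Btrc (118 and 36, 119 and 19), an L1MC5 in an exon of Aldh1l2 (106 and 44) and an L1MD1 in an exon of Mcph1 (74 and 29).

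In some genes several loci lay past the limit on the same side. The genes named here were picked from those with 3 or more such loci. No share over LINE loci in general is given beside them, so they are a description only. Btrc encodes a substrate receptor of an SCF ubiquitin ligase, and its 5 kept L1MC and L1MD loci held 418 and 79 counts in embryos, all 5 below −1, and 90 and 19 in fibroblasts, 4 of 5 below −1. In Fam162a 4 of 5 loci were below −1 in fibroblasts (118 and 47 counts). In Lrrk1 7 of 10 were below −1 in fibroblasts (126 and 69), while 1 was above 1, an L1MC4 with 0 and 14 counts. In Runx1, a blood transcription factor gene, 4 of 4 were above 1 in embryos (20 and 58), and in Tdrd7 3 of 4 were in fibroblasts (16 and 56). In Xpnpep1 3 of 3 were below −1 in embryos (47 and 10). There were 68 genes with 3 or more loci kept in fibroblasts. Of these, 1 had 3 or more above 1 and none below −1, and 4 had 3 or more below −1 and none above 1. In 1 more gene, 3 or more lay past the limit on 1 side and some on the other. Of 155 genes with 3 or more loci kept in embryos the numbers were 3, 7 and 7. Genes with loci on both sides but fewer than 3 on each are in none of these numbers. Among the 7 genes in embryos with 3 or more on 1 side and some on the other were Fgfr2 and Gprasp1. Fgfr2, a fibroblast growth factor receptor gene, had 3 above and 3 below of 11, and Gprasp1 had 2 above and 5 below of 8. The other intronic LINE loci, summed, went the opposite way in Runx1 in embryos (23 and 9) and Lrrk1 in fibroblasts (90 and 163). They went the same way in Fam162a in fibroblasts (145 and 43) and Xpnpep1 in embryos (142 and 80).

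Summed per gene, intronic L1MC and L1MD loci went with the other intronic LINE loci of the gene in fibroblasts. Over 298 genes with at least 20 counts in each of the 2 sums, Spearman's rho was 0.44 and Pearson's r 0.57, across genes that share libraries and depth. Of 50 genes whose L1MC and L1MD loci were below −1, 25 had other LINE loci below −1 and 45 (90.0%) had them below 0, against 19.8% and 66.8% of all 298. Of 23 genes above 1, 2 (8.70%) had other loci above 1 and 15 (65.2%) above 0, against 4.03% and 33.2%. In embryos rho was 0.14 and r 0.13 over 700 genes, and 14 of 106 genes below −1 (13.2%) and 5 of 94 above 1 (5.32%) had other loci past the same limit, against 9.14% and 4.29% of all 700. The gene Aim2, a cytosolic DNA sensor noticed after its values were seen, had 0 and 22 counts on L1MC and L1MD and 0 and 51 on other LINE loci in fibroblasts. Its log2 fold changes, 7.44 and 8.65, were the highest of the 298 genes in each sum. The fibroblast r of 0.57 includes this gene.

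**Figure D5:**
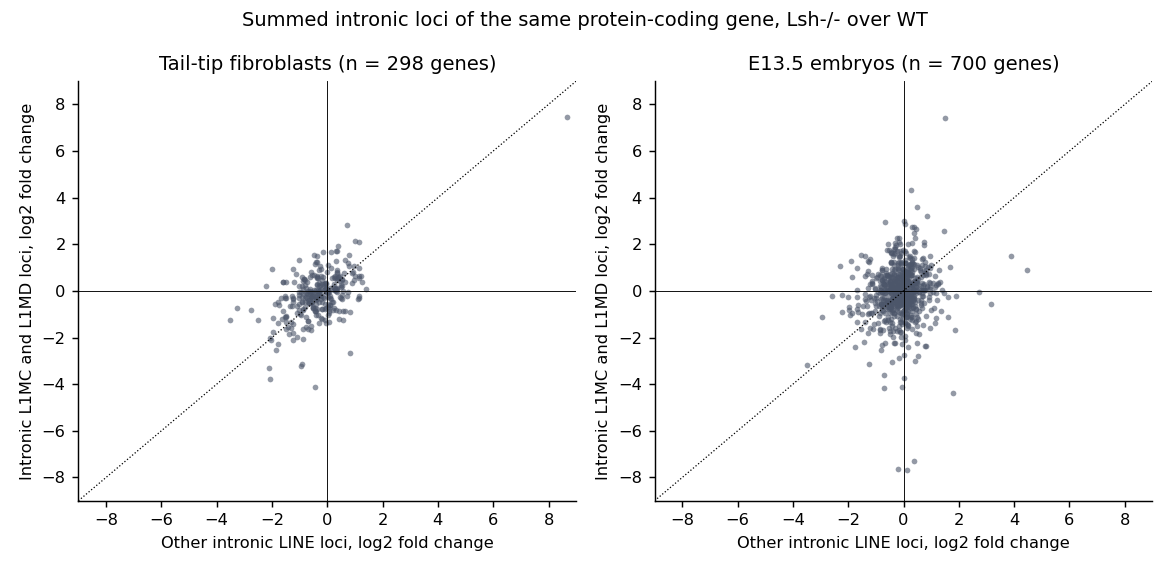
Log2 fold change of summed intronic L1MC and L1MD loci (y axis) against that of the other intronic LINE loci of the same protein-coding gene (x axis), with the dotted line marking equality. Genes lie along the line more in fibroblasts, with rho of 0.44, than in embryos, with rho of 0.14.

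The flanking intervals lie 10 to 11 kb from each locus, towards lower coordinates (upstream in the tables, whatever the strand) or higher ones (downstream). They are among the intervals by which the libraries were scaled, so the scaling itself holds their medians near no change. In fibroblasts their medians were 0.04 upstream and 0.07 downstream, and in embryos −0.05 and −0.03. In fibroblasts 2.90% of 5595 upstream intervals were above 5, against 6.51% around all LINE loci, and 3.30% of 5393 downstream, against 6.62%. In embryos 1.39% were on either side, against 1.94% and 2.01%. Below −5 were 0.769% upstream and 0.760% downstream in fibroblasts, against 1.07% and 1.08%, and 1.50% and 1.37% in embryos, against 1.73% and 1.62%. The fold changes of locus and interval had rho of 0.23 upstream (n = 667) and 0.24 downstream (n = 658) in fibroblasts, and 0.02 (n = 1483) and 0.06 (n = 1450) in embryos. Intervals of neighbouring repeats overlap, so these points are not independent.

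In fibroblasts the intervals around lower loci were lower more often than intervals in general, while those around loci above 1 were not higher more often than intervals around LINE loci in general. Around the 184 fibroblast loci above 1, 17 of 92 upstream intervals and 17 of 108 downstream intervals with enough counts were above 1 too (18.5% and 15.7%), against 18.6% and 19.0% of all intervals and 14.3% and 14.8% of those around L1MC and L1MD loci. Around the 209 loci below −1, 34 of 128 and 29 of 119 were below −1 (26.6% and 24.4%), against 13.6% and 13.48% of all intervals. Around the 23 loci above 5, 8 intervals on each side had enough counts, and 4 of the 8 upstream and 5 of the 8 downstream were above 1. Above 5 were 3 on each side (37.5%), against 6.51% and 6.62% of all intervals, so the few intervals around the most raised loci were higher more often. In embryos 33 of 276 and 30 of 278 intervals around loci above 1 were above 1 (11.96% and 10.8%), against 14.2% and 14.4%, and 46 of 341 and 42 of 311 around loci below −1 were below −1 (13.49% and 13.505%), against 14.5% and 14.2%. These intervals were picked by the same pair of libraries as the loci, so the shares are a description with no test.

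In the tables as a whole the same loci were seldom past the limit in both tissues. Of 959 loci kept in both, 20 were above 1 in both, 29 were below −1 in both, 27 were above in fibroblasts and below in embryos, 21 were the other way, and 470 (49.0%) were within 1 in both. The first 4 of these counts were 2.09%, 3.02%, 2.82% and 2.19% of the 959 loci, against 3.60%, 3.50%, 2.98% and 2.84% of 11016 LINE loci. The 20 were 14.0% of the 143 loci above 1 in fibroblasts, while 11.5% of all 959 were above 1 in embryos, and the 29 were 17.6% of 165 loci below −1 in fibroblasts, while 17.5% of all were below −1 in embryos. For all LINE loci the shares were 20.7% against 14.1% above 1, and 19.9% against 16.6% below −1. Spearman's rho between the tissues was −0.04 and Pearson's r was 0.04 (n = 959).

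Of the loci above 1 in both tissues, the largest were an L1MC4 on chromosome 18 near Pcdhgc5, a clustered protocadherin gene, with 8 and 19 counts in fibroblasts and 15 and 58 in embryos, and the L1MD1 on chromosome 6. An L1MC4 in Dstyk had 4 and 15, then 9 and 23 counts, an L1MC near Ppp1r2 had 5 and 14, then 7 and 21, and an L1MC1 near Runx3 had 4 and 12, then 2 and 15. An IAPLTR1a_Mm above 5 in fibroblasts lay 511 bp from the Runx3 copy. The fibroblast intervals of 3 of these 5 included 0, the exceptions being the copy in Dstyk (0.21 to 3.91) and the one on chromosome 6. Of the loci below −1 in both, an L1MDb in an intron of Kif11, a mitotic kinesin, had 46 and 3 counts in fibroblasts and 29 and 0 in embryos. An L1MD3 in Mical2 had 25 and 8, then 41 and 16, and an L1MD1 in Galnt11 had 20 and 5, then 62 and 11. The 2 Btrc copies had 30 and 6, then 118 and 36, and 22 and 5, then 119 and 19.

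Between tissues, L1MC and L1MD loci were read more in embryos, as LINE loci were in general. With all 4 libraries scaled together, the median log2 ratio of WT embryos over WT fibroblasts was 0.57 (0.51 to 0.65, n = 1827), against 0.54 over 20094 LINE loci. Outside genes it was 0.94 (0.53 to 1.22, n = 166) in WT and 0.35 (−0.06 to 0.67, n = 181) in Lsh-/-. For all LINE loci outside genes the values were 0.68 and −0.35.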

How the data were processed

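The authors prepared paired-end, strand-specific dUTP libraries, mapped reads to mm9 with TopHat 1.4.0 allowing no mismatch, kept unique reads and joined them to repeatmasker annotation in Galaxy. They deposited raw counts of reads per locus, without normalization, and used edgeR. How strand and read pairs were counted is not stated in the sources used here. Unlisted loci were given a count of 0.

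Starts count from 0 in the tables, and coordinates are given from 1. A flanking interval held at least the count of each of 955 repeats lying 10 to 11 kb towards lower coordinates and 907 towards higher ones. Libraries were scaled by TMM (edgeR 4.0.16, R 4.3.3) over flanking intervals, and a prior count of 0.125, scaled to library size, was added. Fold changes, intervals, sequences and plots were made with Python 3.11.15, NumPy 2.4.6, SciPy 1.17.1, pandas 2.3.3, pysam 0.24.0 and matplotlib 3.10.9. The fold-change calculation was also run on simulated counts, scaled by LINE totals, with changes planted only at well covered loci. Recovery of changes near the count minimum was not checked. Counts summed over the 6 tables, overlapping flanking intervals included, were 19216257 to 33904311 per library, of which the LINE table held 456109 to 855043. These sums are not sequencing depth. The 95% intervals of ratios and totals cover counting error only, while those of medians and shares cover the spread over loci.

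Members, lists and the exons of Hells were chosen with earlier results of these data known. Loci named are, per tissue, those with the largest counts overall (3), above 1 (5), below −1 (5), above 5 (3) and below −5 (3), and across tissues those above or below in both (5 each) or opposite (3 each). A gap between tissues was not tested.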

Additional observations from a re-analysis of the deposited data

Results flagged for a closer look

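At 6 named loci the log2 fold change was past 1 in one direction in fibroblasts and in the opposite direction in embryos. The difference between tissues was not tested, since each value rests on 1 library per genotype, and 27 and 21 of 959 loci were opposite in these ways (2.82% and 2.19%), against 2.98% and 2.84% of 11016 LINE loci. An L1MC in an intron of Zfp868, a zinc finger gene, had 24 and 62 counts in fibroblasts (log2 fold change 1.32) and 153 and 42 in embryos (−1.81). An L1MD3 in an intron of Trp53bp1, a DNA repair gene, had 7 and 36 counts in fibroblasts (2.30) and 72 and 30 in embryos (−1.21). An L1MC5 in an intron of Zfp697 had 16 and 34 counts in fibroblasts (1.04) and 22 and 3 in embryos (−2.77).

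The other 3 were lower without Lsh in fibroblasts and higher in embryos. An L1MC2 in an intron of the long non-coding gene Pvt1 had 29 and 10 counts in fibroblasts (−1.57) and 15 and 30 in embryos (1.05). An L1MC in an intron of Snx12, a sorting nexin gene on chromosome X, had 24 and 11 counts in fibroblasts (−1.16) and 11 and 22 in embryos (1.05). An L1MC2 in an intron of Parva, an actin-binding protein gene, had 21 and 10 counts in fibroblasts (−1.11) and 22 and 44 in embryos (1.05). The interval of the fibroblast ratio for Parva and of the embryo ratio for Snx12 included 0.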

How the results depend on the processing

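No paired analysis was possible because each group has 1 library and the labels give no replicate numbers. Few reads limit most loci, and with 1 library a group no alternative leaves a sample out. The cause of the changes below was not tested unless an alternative's own construction gives it. Scaled by all 6 tables, the fibroblast median was 0.63, with 37.7% above 1 and 8.05% below −1. Scaled by the LINE table, 18.7% were above 1 and 15.5% below −1, and with median-of-ratios factors 15.9% were below −1 in fibroblasts and 18.6% above 1 in embryos.

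With no count minimum the median was −0.63 in fibroblasts and −0.40 in embryos. The shares above 1 and below −1 were 28.3% and 46.5% in fibroblasts and 32.5% and 43.3% in embryos, 3.81% of fibroblast loci were below −5, and 7.49% and 9.49% of embryo loci were above 5 and below −5. With at least 50 counts the fibroblast median was 0.11, 8.64% were above 1, 5.56% below −1 and 0% below −5. In embryos 6.33% were above 1, 8.35% below −1, 0% above 5 and 0.253% below −5. With a prior count of 1, 13.9% of fibroblast loci were above 1, 15.9% below −1, 0.531% above 5 and 0% below −5, and in embryos 18.7%, 19.4%, 0% and 0.0445%. A larger prior lowers the fold change of loci with 0 counts by construction.

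Over loci outside genes alone the fibroblast median was 0.43, with 30.6% above 1, 13.2% below −1, 10.7% above 5 and 0% below −5, and in embryos the shares were 26.0%, 25.1%, 5.94% and 5.48%. The scaled total on L1MC and L1MD in fibroblasts was 31464 in WT and 29956 in Lsh-/-. It was 30958 and 30438 with median-of-ratios factors, 30258 and 31159 with the LINE total, and 25465 and 38810 with all 6 tables. In embryos it was 61014 and 57955, then 62159 and 56867 with median-of-ratios factors and 60455 and 58516 with the LINE total. Of the main results under all alternatives, 51 values moved and 51 stayed the same. For the named loci 11 values moved past their counting interval, all of them fibroblast values scaled by all 6 tables, 313 did not, and 0 changed direction past a limit.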
